A study of Mus musculus with 21 samples.

Results

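Renin-angiotensin system genes were followed in the kidney RNA of adenine-fed mice. The 9 genes Agt, Ren1, Ace, Mme, Enpep, Agtr1a, Agtr1b, Mas1 and Atp6ap2 were chosen by symbol from a list of the pathway, and all 9 were found among the 20634 genes present in both count tables. All mice were female, lacked apoE on a C57BL/6J background, were given their diets from 4 weeks of age for 14 weeks and were 18 weeks old when the kidneys were taken. Con mice (n = 5) received control diet, Ade mice (n = 6) received adenine, which injures the renal tubules, and Ade + IMC mice (n = 6) received adenine with iodomethylcholine (IMC), an inhibitor of microbial trimethylamine production. Another 4 mice labelled Con + IMC were not analysed here, so an effect of IMC without adenine has no value below. RNA came from whole kidney, in which fewer cells of a type and less RNA per cell cannot be told apart, and the lack of apoE is shared by all groups.

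The renin-angiotensin system is a cascade of peptide cleavages. Renin, the product of Ren1, is released by juxtaglomerular cells of the afferent arteriole and cuts angiotensinogen (Agt) to angiotensin I, which angiotensin-converting enzyme (Ace) converts to angiotensin II. Angiotensin II raises blood pressure and sodium retention mainly through the type 1 receptor, encoded in mice by Agtr1a and Agtr1b, while peptidases of the proximal tubule brush border such as Mme (neprilysin) and Enpep (aminopeptidase A) degrade or reshape angiotensin peptides. Mas1 encodes the receptor for angiotensin-(1-7), and Atp6ap2, the (pro)renin receptor, is also an accessory subunit of the vacuolar proton pump. C57BL/6 mice carry Ren1 and lack the duplicated renin gene of some other strains.

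The sequence just before the transcription start is shown for Agt, Ren1 and Ace, since these genes encode the substrate and both enzymes of angiotensin II formation and their RNA levels behaved differently in the adenine-fed kidneys. Sequences are RefSeq's, on GRCm38.p6, read 5′ to 3′ on the gene's strand and ending at the base before the start. Capitals mark TATAAA, the letters of a TATA box, on either strand. The windows are chr8:124569707-124569956 (minus strand) for Agt, chr1:133350644-133350673 (plus strand, inside GENCODE's longer gene model) for Ren1 and chr11:105967698-105967947 (plus strand) for Ace.
Agt: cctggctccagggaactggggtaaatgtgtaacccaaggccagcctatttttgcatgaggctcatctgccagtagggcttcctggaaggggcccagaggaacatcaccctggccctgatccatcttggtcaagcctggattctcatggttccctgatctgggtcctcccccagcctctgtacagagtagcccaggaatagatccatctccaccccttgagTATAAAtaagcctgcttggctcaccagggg
Ren1: gTATAAAagaaggctcagggggtctgggct
Ace: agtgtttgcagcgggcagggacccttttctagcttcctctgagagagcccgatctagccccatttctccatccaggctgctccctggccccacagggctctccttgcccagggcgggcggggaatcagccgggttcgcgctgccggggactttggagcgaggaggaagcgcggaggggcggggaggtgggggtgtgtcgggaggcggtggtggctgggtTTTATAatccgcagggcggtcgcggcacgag
The letters began 30 bases before the start in Agt and 29 bases before it in Ren1, and 31 bases before it on the opposite strand in Ace. The sequence table held 11 windows of 250 bases before a start for 8 of the 9 genes and none for Agtr1a. TATAAA was found in 5 of these 11 windows, 1 each of Agt, Ren1, Ace, Agtr1b and Enpep, beside 12.4% of 32851 promoter windows of all genes. It began 31 bases before the start in Agtr1b, and 52 bases before it on the opposite strand in Enpep. The cyclic AMP response element TGACGTCA was found in 0 of the 11 windows, beside 1.55% of all windows. These are matches of letters only.

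Con libraries held 7716126 to 11680809 counts, Ade libraries 5444833 to 7673215 and Ade + IMC libraries 5728589 to 8305968. The Con libraries were the deepest by median, although the ranges of Con and Ade + IMC libraries overlapped. Ade + IMC replicate 4 stood apart from its group, with a chi-square per degree of freedom of its counts over genes of 44.3 to 75.4 against the other 5 libraries, beside 9.72 to 33.8 between those 5, 4.21 to 20.9 between Con and 10.4 to 50.1 between Ade libraries. Without it the members called in both comparisons of Ade + IMC mice were the same except Agt, given below. Levels are given in CPM, counts scaled to a common library size after the trimmed mean of M values (TMM) correction. Apoe, the deleted gene, was read at 47 to 214 counts per library, with no wild-type mouse to set this against. Havcr1, a marker of tubular injury, was read 1 to 7 times in Con libraries, 549 to 2104 times in Ade libraries and 192 to 1580 times in Ade + IMC libraries, so every library matched its adenine label. The summed level of 8 proximal tubule markers reached 11819 to 16808 CPM with control diet, 1915 to 6954 CPM with adenine and 3117 to 6141 CPM with adenine and IMC, and 8 of 8 were lower in each adenine-fed group than in the Con group. Of 7 adrenal cortex markers, which would reveal attached adrenal tissue, 5 were measured, with a summed level of 4.81 to 10.6 CPM for Con, 4.89 to 6.61 CPM for Ade and 5.32 to 7.62 CPM for Ade + IMC. Most of this was Star, at 29 to 71 counts per library, while the steroid enzyme genes Cyp11a1, Cyp21a1 and Hsd3b1 had 0 to 5 counts. Mc2r, the corticotropin receptor gene, had 0 to 2 counts per Con library, 4 to 16 per Ade library and 1 to 10 per Ade + IMC library. Summed fat cell markers varied within groups, at 0.406 to 12.6 CPM for Con, 0.406 to 143 CPM for Ade and 0.415 to 557 CPM for Ade + IMC.

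Compared per kilobase of exon (FPKM, computed from the counts and GENCODE M21 exon lengths), the order of the members differed between groups. In the Con mice the median level was highest for Ren1 at 74.3 FPKM, followed by Ace at 69.7, Agt at 56.6 and Atp6ap2 at 54.9 FPKM, and then Enpep at 35.9, Mme at 26.1 and Agtr1a at 24.5 FPKM. Neighbouring genes in this order overlapped in range, Ren1 lying between 8.12 and 122 FPKM, except Ace, at 69.2 to 98.8 FPKM, and Agt, at 45.7 to 67.2 FPKM, which did not. In the Ade mice Agt came first at 51.7 FPKM and Ren1 second at 34.6 FPKM, while Ace was in place 5 at 15.6 FPKM. In the Ade + IMC mice Ren1 was again first at 60.2 FPKM, Agt had 45.1, Atp6ap2 35.1 and Ace 23.3 FPKM. Mas1 and Agtr1b were last in each group, with medians of 0.296 to 0.341 FPKM for Mas1 and 0.0561 to 0.102 FPKM for Agtr1b.

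To ask how adenine feeding altered the cascade, Ade mice were compared with Con mice. RNA for Ace, Mme, Enpep, Agtr1a and Atp6ap2 was lower in the Ade kidneys, by 1.52-fold to 4.12-fold, whereas Agt was at a similar level in both groups. Ren1 was lower in every Ade mouse than in 4 of the 5 Con mice, but Con replicate 5 had less Ren1 than any other mouse analysed here. Of the 7 members with enough counts to test, 5 were lower and 0 higher at an adjusted p below 0.1 (edgeR quasi-likelihood test, Benjamini-Hochberg). Adenine feeding changed much of the transcriptome, with 67.3% of 14612 tested genes called and 32.2% called lower. The median log2 fold change was -0.90 over the 7 tested members and 0.02 over all genes. Over the 8 proximal tubule markers the median was -1.90. Over 7 markers of the proximal tubule brush border, which include Mme and Enpep, it was -1.36. The part of these cells in the members' levels was not tested.

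**Figure D1:**
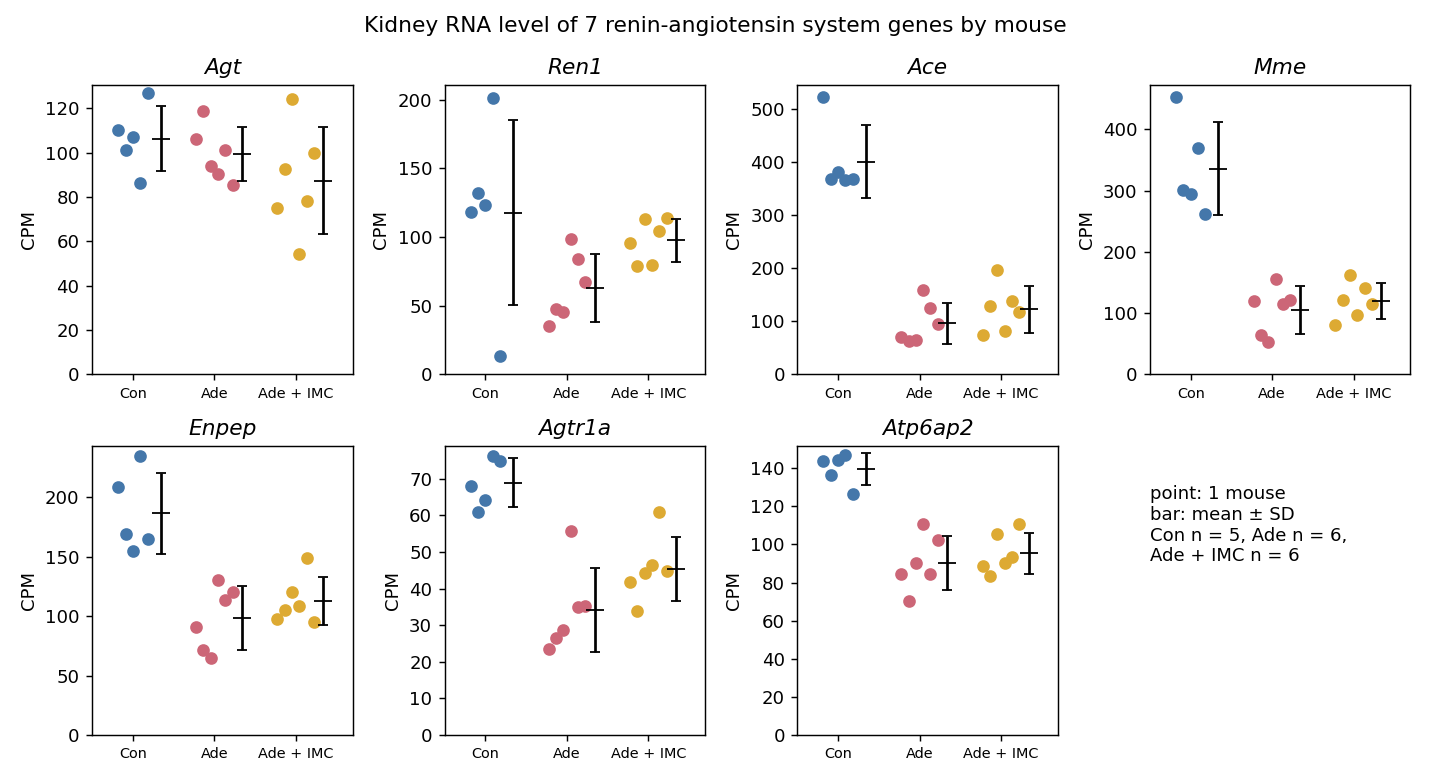
RNA level in CPM (vertical axis, from 0) of the 7 tested members in each mouse of the Con, Ade and Ade + IMC groups, with the mean ± SD beside the points. Ace, Mme, Enpep and Atp6ap2 were lower in every adenine-fed mouse than in every Con mouse, and 1 Con mouse stood far below the others for Ren1.

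Agt (ENSMUSG00000031980, GRCm38 chr8:124556534-124569706, minus strand), the only substrate of renin, had 110.2, 101, 107, 86.5 and 127 CPM in the Con mice. The Ade mice had 106, 119, 94.1, 90.5, 101 and 85.4 CPM, so the groups overlapped almost completely. The log2 fold change was -0.08 ± 0.11 (SE, n = 6 and 5, edgeR adjusted p = 0.565). Liver is the main source of circulating angiotensinogen, and of the 4 liver markers Ttr was higher in every Ade mouse (log2 fold change 1.97), Alb was lower in every Ade mouse (-1.39), Apoa2 was not called and Serpina1c had too few counts. The summed level of the list was 64.2 to 89.5 CPM in the Con and 110 to 295 CPM in the Ade mice. This rise was that of Ttr, at 39.6 to 56.1 CPM in the Con and 104 to 276 CPM in the Ade mice, while the means of the other 3 were lower in the Ade mice, and the part of liver markers in the Agt level was not tested.

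Ren1 (ENSMUSG00000070645; chr1:133350510-133360325, plus strand) had 118, 132, 123, 201 and 13.5 CPM in Con replicates 1 to 5. The last value rested on 103 counts, beside 909 to 1551 counts in the other Con libraries. The Ade mice had 34.8, 47.5, 45.3, 98.5, 84.1 and 67.1 CPM, below the other 4 Con mice and above Con replicate 5. The log2 fold change was -0.88 ± 0.45 (SE) and missed the threshold (edgeR adjusted p = 0.106, exact permutation test over the mice on the log2 scale, two-sided p = 0.409). Without Con replicate 5 it was -1.17 ± 0.26 (SE) with an edgeR adjusted p of 0.00215, and over all 17 alternatives it ran from -1.17 to -0.56, the smallest with limma, and the adjusted p from 0.00215 to 0.387.

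Con replicate 5 was not low for the cascade as a whole. Its Agt and Klk1 levels were the highest of the Con group, at 127 and 2530 CPM, while its Ace (368 CPM), Enpep (165 CPM) and Agtr1a (74.9 CPM) lay within the range of the other Con mice. Its Mme (262 CPM) and Atp6ap2 (126 CPM) were the lowest of the group, next to 294 and 137 CPM in the Con mouse closest to it. Akr1b7, an aldo-keto reductase gene that is expressed with renin in juxtaglomerular cells, was also lowest there, at 0.915 CPM or 7 counts, beside 1.72 to 2.99 CPM or 17 to 23 counts in the other Con mice. Its summed endothelial markers, 453 CPM beside 547 to 697, and thick ascending limb markers, 4741 CPM beside 6096 to 9121, were also the lowest of the group, and their part in its Ren1 level was not tested. The labels do not say why this mouse might differ.

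Ace (ENSMUSG00000020681; chr11:105967945-105989964, plus strand) had the largest difference among the members. The Con mice had 522, 369, 381, 366 and 368 CPM and the Ade mice 70.2, 63.2, 64.3, 159, 125 and 94.7 CPM. Every Ade mouse lay far below every Con mouse. Ace was 4.12-fold lower, a log2 fold change of -2.04 ± 0.23 (SE, edgeR adjusted p = 6.13e-06, exact permutation p = 0.00216, the smallest that 462 splits allow). An annotated antisense gene, Gm11651, shares 295 of the 5287 exon bases of Ace, and without a statement on strand its reads cannot be told apart from those of Ace there.

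Among the brush border peptidases, Mme (ENSMUSG00000027820; chr3:63241537-63386030, plus strand) had 453, 302, 294, 369 and 262 CPM in the Con mice. The Ade mice had 119, 63.6, 52.1, 156, 114 and 121 CPM, again with no overlap. The difference was 3.17-fold, at a log2 fold change of -1.66 ± 0.24 (SE, edgeR adjusted p = 6.22e-05). Enpep (ENSMUSG00000028024; chr3:129269175-129332720, minus strand), which removes the N-terminal aspartate of angiotensin II, had 209, 169, 155, 235 and 165 CPM in the Con mice. The Ade mice had 91.0, 71.8, 65.0, 131, 114 and 120.0 CPM and did not reach the lowest Con mouse. Enpep was 1.86-fold lower (log2 fold change -0.90 ± 0.18, SE, edgeR adjusted p = 0.000625). Both genes were also among 7 brush border markers of the proximal tubule, of which 7 of 7 were lower. The summed level of those markers was 3338 to 4191 CPM in the Con and 882 to 2182 CPM in the Ade mice, and its part in the difference of the members was not tested.

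Among the receptors, Agtr1a (ENSMUSG00000049115; chr13:30336441-30382867, plus strand) had 68.1, 60.9, 64.3, 76.4 and 74.9 CPM in the Con mice. The Ade mice had 23.5, 26.5, 28.6, 55.7, 35.1 and 35.4 CPM, with Ade replicate 4 closest to the Con mice but still below them. Agtr1a was 1.99-fold lower (log2 fold change -0.99 ± 0.18, SE, edgeR adjusted p = 0.000291). Agtr1b (ENSMUSG00000054988; chr3:20314473-20367177, minus strand), the other type 1 receptor gene, had 0 to 3 counts in each of the 17 libraries and did not pass the count filter of the test across genes. The transcripts of the pair share 33 stretches of 50 bases, the read length, which is 1.27% of those in Agtr1a and 1.54% of those in Agtr1b. Mas1 (ENSMUSG00000068037; chr17:12841079-12868143, minus strand) was read 4 to 8 times per Con library and 2 to 15 times per Ade library and did not pass it either. An exact permutation test over the mice gave p = 0.463 for Agtr1b and p = 0.922 for Mas1.

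Atp6ap2 (ENSMUSG00000031007; chrX:12587801-12617049, plus strand) had 144, 137, 144, 147 and 126 CPM in the Con mice. The Ade mice had 84.5, 70.4, 90.2, 111, 84.2 and 102 CPM and stayed below all Con mice. The difference was the smallest among the called members, 1.52-fold (log2 fold change -0.61 ± 0.10, SE, edgeR adjusted p = 0.00019). Thus 5 of the 7 tested members had no Ade mouse inside the Con range, beside 20.6% of all tested genes with every Ade mouse below every Con mouse. The calls of Ace, Mme, Enpep, Agtr1a and Atp6ap2 and the absence of a call for Agt held in each of the 17 alternatives, including every mouse left out in turn.

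**Figure D2:**
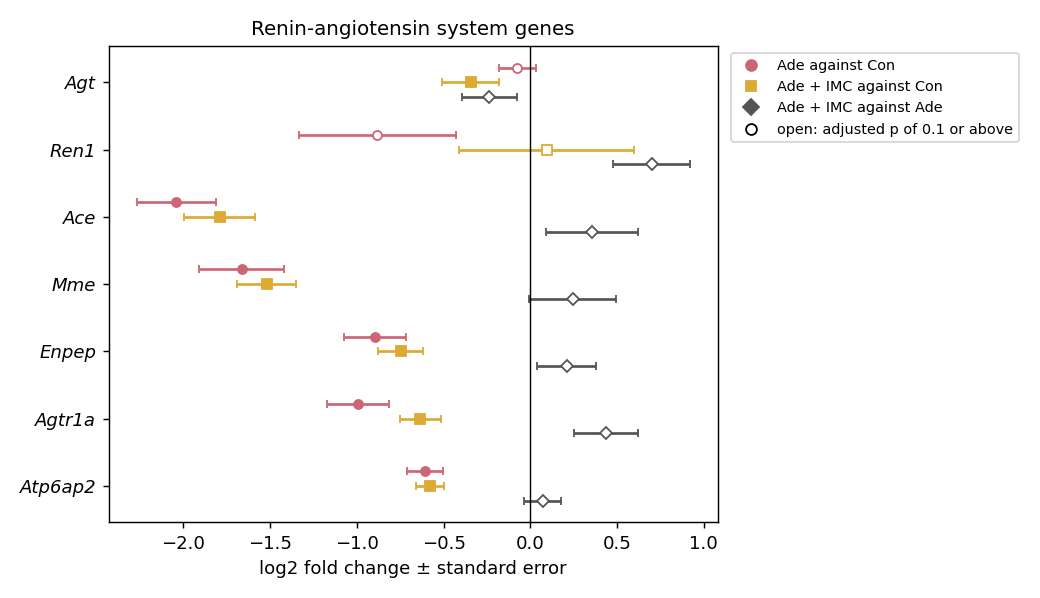
Log2 fold change ± SE (horizontal axis) of the 7 tested members in the comparisons Ade against Con, Ade + IMC against Con and Ade + IMC against Ade, with open symbols for an adjusted p of 0.1 or above. Both comparisons with the Con mice lie below 0 for Ace, Mme, Enpep, Agtr1a and Atp6ap2, and every symbol of Ade + IMC against Ade is open.

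The Ade mice varied among themselves in a way that followed the leading digit of the mouse number, a digit whose meaning the labels do not state. The 3 Ade mice with the digit 4 (Ade replicates 4 to 6) had higher levels of Ren1, Ace, Agtr1a and Enpep than the 3 mice with the digits 2 and 3. Ren1 was 67.1 to 98.5 CPM against 34.8 to 47.5 CPM, Ace 94.7 to 159 CPM against 63.2 to 70.2 CPM. Agtr1a was 35.1 to 55.7 CPM against 23.5 to 28.6 CPM and Enpep 114 to 131 CPM against 65.0 to 91.0 CPM. The digits 2 and 3 were pooled after these values were seen, so this is a description with no test. Agt, Mme and Atp6ap2 overlapped between the same mice. Havcr1 ran the other way, at 74.3 to 92.0 CPM in the mice with the digit 4 and 159 to 267 CPM in the others, and 6 of the 8 proximal tubule markers were higher in the mice with the digit 4 without overlap. Beside this, 11.5% of all 14612 tested genes were higher and 10.1% lower in the Ade mice with the digit 4 without overlap. The same digits did not separate the Ade + IMC mice. In the 2 of them with the digit 4, Ren1 was 104 and 114 CPM beside 79.0 to 113 CPM in the other 4, Ace 138 and 117 beside 74.3 to 196 CPM, Agtr1a 61.0 and 44.7 beside 34 to 46.4 CPM and Enpep 149 and 94.8 beside 97.7 to 121 CPM. With the digit as a block, the differences between Ade and Con mice were -2.31 for Ace, -1.15 for Agtr1a, -1.06 for Enpep and -0.81 for Ren1 on the log2 scale, and Ren1 was not called (edgeR adjusted p = 0.274). Within the digits 2 and 3 Ren1 differed by -1.60 and -1.78, and within the digit 4, where Con replicate 5 is the only Con mouse, by 2.53.

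**Figure D3:**
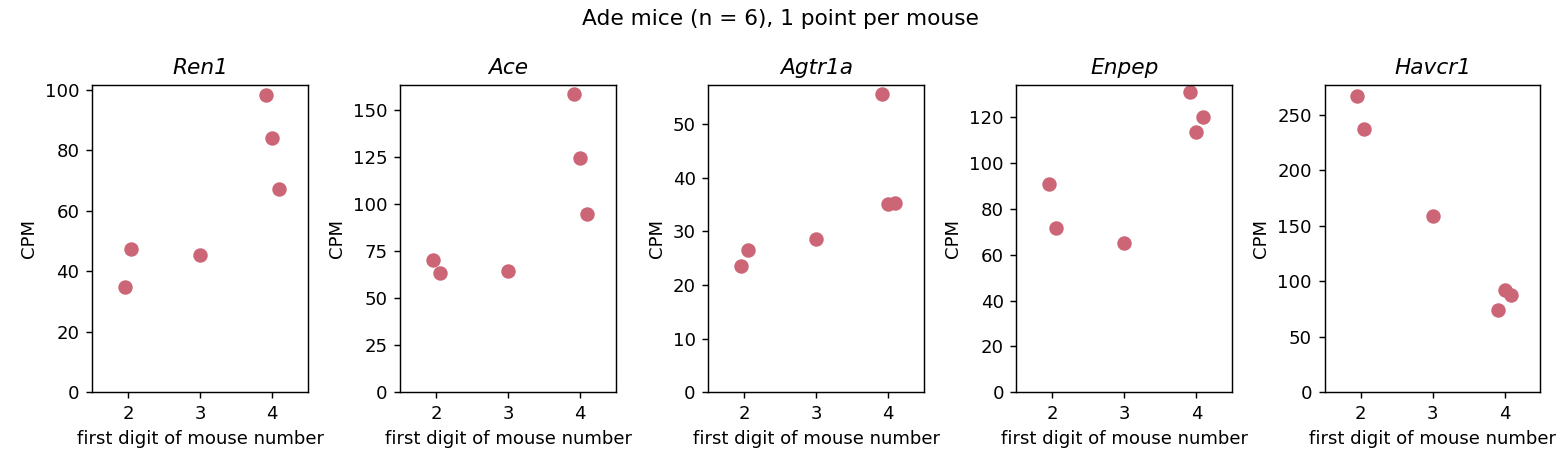
RNA level in CPM (vertical axis, from 0) of Ren1, Ace, Agtr1a, Enpep and Havcr1 in the 6 Ade mice by the leading digit of the mouse number (horizontal axis), with 1 point per mouse. The 3 mice with the digit 4 are above the others for Ren1, Ace, Agtr1a and Enpep and below them for Havcr1.

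Within each digit the direction against Con mice was the same for Ace, Mme, Enpep, Agtr1a and Atp6ap2, with log2 differences for Ace of -2.70, -2.52 and -1.57 among mice with the digits 2, 3 and 4. Ren1 differed by -1.60 and -1.78 among mice with the digits 2 and 3 and by 2.53 among mice with the digit 4, where the only Con mouse is Con replicate 5. These within-digit values rest on 1 to 3 mice a group and have no test.

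Other genes of the pathway moved in both directions. Of 43 listed genes of angiotensin processing, receptors and their partners, kinins, the mineralocorticoid arm and renin cells, 41 were measured and 37 tested. Relative to the Con mice, 11 were higher and 12 lower in the Ade mice, shares near the 35.1% of all genes called higher and 32.2% called lower, and the median log2 fold change was 0.08. Among 11 tested angiotensin peptidases 3 were higher and 4 lower, and among 14 genes of renin cells and their control 5 were higher and 3 lower. In the mineralocorticoid arm 2 of 3 were lower, in the kinin system 1 of 3 was higher and 1 lower, and among receptors and partners 2 of 6 were higher and 2 lower.

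Anpep, aminopeptidase N of the brush border, fell by 0.77 on the log2 scale (SE 0.13, edgeR adjusted p = 0.000171), with 223 to 346 CPM in the Con and 133 to 204 CPM in the Ade mice. Klk1, the tissue kallikrein that releases kinins, fell by 1.08 (SE 0.22, edgeR adjusted p = 0.000733), with 1533 to 2530 CPM in the Con and 546 to 1162 CPM in the Ade mice. Nos1, the neuronal nitric oxide synthase of the macula densa, fell by 1.39 (SE 0.32, edgeR adjusted p = 0.0021), from 3.93 to 15.4 CPM in the Con mice to 1.82 to 4.07 CPM in the Ade mice, with 1 Ade mouse inside the Con range. Klk1 and Nos1 are expressed in the distal nephron and macula densa, and distal markers were lower too. Both collecting duct markers fell, Aqp2 by 1.28 and Atp6v1g3 by 0.87 on the log2 scale, with a summed level of 177 to 363 CPM in the Con and 77.0 to 145 CPM in the Ade mice. Of 2 thick ascending limb markers Slc12a1 fell by 1.06 (edgeR adjusted p = 0.00589) and Umod was not called, with a summed level of 4741 to 9121 and 2522 to 6032 CPM. The part of these cells in the Klk1 and Nos1 levels was not tested. Agtr2, the type 2 receptor gene, had 0 to 11 counts per library in the 3 groups and was not tested.

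Of the pathway genes named here, Ptger4, Gja4, Gja5, Bdkrb2 and Akr1b7 rose. Ptger4, a prostaglandin E2 receptor gene through which renin release is stimulated, had 6.77 to 9.54 CPM in the Con and 21.7 to 29.4 CPM in the Ade mice and was 3.38-fold higher (log2 fold change 1.76 ± 0.13, SE, edgeR adjusted p = 1.13e-07). Ptger4 is also expressed by macrophages, and 4 of 4 macrophage markers were higher, with a summed level of 112 to 144 CPM in the Con and 321 to 495 CPM in the Ade mice; their part in the Ptger4 level was not tested. Gja4 and Gja5 encode the gap junction proteins connexin 37 and connexin 40 of arteriolar cells. Of 6 markers of vascular smooth muscle and pericytes 4 were also higher, with a summed level of 439 to 535 CPM in the Con and 715 to 862 CPM in the Ade mice. The calls of Acta2, Tagln and Pdgfrb held in all 17 alternatives and that of Rgs5 (log2 fold change 0.26, edgeR adjusted p = 0.0904) was lost in 14 of them. Of 6 endothelial markers 3 were lower, and the part of both marker lists in these levels was not tested. Gja4 was higher in every Ade mouse (4.81 to 8.38 CPM in the Con and 9.15 to 14.5 CPM in the Ade mice, log2 fold change 0.77 ± 0.18, SE, edgeR adjusted p = 0.002). Gja5, at 10.5 to 17.6 and 12.7 to 24.1 CPM, was higher at an edgeR adjusted p of 0.0437 (log2 fold change 0.48 ± 0.19, SE), and the call was lost without Ade replicate 2, Con replicate 1 or Con replicate 5, at adjusted p of 0.102 to 0.106. Bdkrb2, the kinin B2 receptor gene, had 5 to 22 counts per library in these groups and was higher (log2 fold change 0.74 ± 0.31, SE, edgeR adjusted p = 0.0482), a call lost with DESeq2 (adjusted p = 0.128) and without Con replicate 2 (0.101) or 3 (0.106).

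Akr1b7 differed from Ren1. Its levels were 1.72, 2.89, 2.3, 2.99 and 0.915 CPM in the Con mice and 2.80, 3.30, 3.34, 4.06, 3.74 and 3.61 CPM in the Ade mice. In 5 of the 6 Ade mice Akr1b7 exceeded every Con mouse, while Ren1 in the same mice was below 4 of the 5 Con mice. The log2 fold change of Akr1b7 was 0.71 ± 0.26 (SE, edgeR adjusted p = 0.0267), and the call held in all 17 alternatives, with adjusted p from 0.0174 to 0.0745. The counts were low, at 7 to 35 per library over the 3 groups, and a pseudogene on the opposite strand, Gm13857, shares 348 of its 1281 exon bases. Akr1b7 is expressed in adrenal cortex and fat as well. The adrenal marker Star was lower in the Ade mice (log2 fold change -0.52) and Mc2r was higher in every Ade mouse than in every Con mouse, and the part of adrenal or fat tissue in the Akr1b7 level was not tested.

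**Figure D4:**
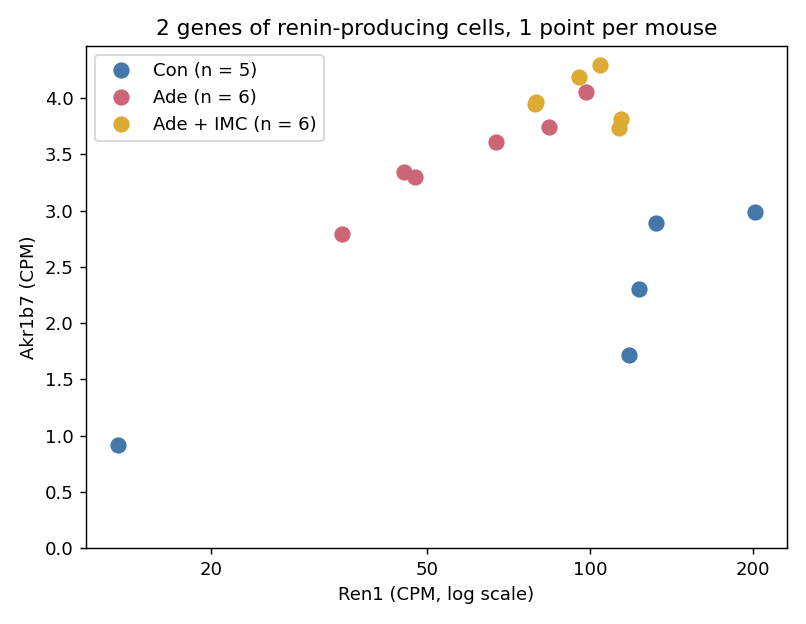
Ren1 level (horizontal axis, CPM on a log scale) and Akr1b7 level (vertical axis, CPM) with 1 point per mouse, coloured by group. Con replicate 5 is at the lower left with 13.5 CPM of Ren1 and 0.915 CPM of Akr1b7, and the Ade mice lie at lower Ren1 and mostly higher Akr1b7 than the other Con mice.

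To ask whether IMC altered these genes in adenine-fed mice, Ade + IMC mice were compared with Ade mice. No member was called at an adjusted p below 0.1, nor was any other gene (0% of 14696, limma on log2 of the normalized count + 1, Benjamini-Hochberg, smallest adjusted p 0.601). At an unadjusted p below 0.05, 2 of the 7 tested members stood higher in the Ade + IMC mice, Ren1 and Agtr1a, beside 3.37% of all genes higher and 6.72% in either direction. With edgeR on the reads recovered from the normalized counts 0 genes were called, and with DESeq2 37 genes, 0 of them members. The study itself reported many more genes changed in each direction between these groups, with DESeq2 at the same threshold. The cause of this difference was not tested. The median log2 fold change was 0.24 over the tested members and 0.01 over all genes.

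Ren1 in the Ade + IMC mice was 95.3, 79.0, 113, 79.6, 104 and 114 CPM. In 3 of these 6 mice it was above all 6 Ade mice, whose values ran from 34.8 to 98.5 CPM, and no Ade + IMC mouse was as low as the 4 lowest Ade mice. The log2 fold change was 0.70 ± 0.22 (SE, n = 6 and 6, limma p = 0.00696, adjusted p = 0.711, exact permutation p = 0.0238, with 0.00216 the smallest that 924 splits allow). With mice blocked by the leading digit of their number it was 0.78 ± 0.16 (SE) and passed the threshold (limma adjusted p = 0.0627), in a fit that called 133 of all genes. Over its 18 alternatives the adjusted p ran from 0.0627 to 0.996 and the log2 fold change from 0.55 to 0.85. Within the digits 2, 3 and 4 Ren1 differed by 1.08, 1.05 and 0.39 on the log2 scale.

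Agtr1a in the Ade + IMC mice was 41.9, 34, 44.2, 46.4, 61.0 and 44.7 CPM. Most of these mice lay between the bulk of the Ade mice and Ade replicate 4, and 1 was above all Ade mice. The log2 fold change was 0.44 ± 0.19 (SE, limma p = 0.035, adjusted p = 0.715, exact permutation p = 0.0736). Within the digits 2, 3 and 4 it was 0.59, 0.65 and 0.32. The marker lists differed, with 0 of 8 proximal tubule, 0 of 5 podocyte and 0 of 6 endothelial markers called and median log2 fold changes of 0.43, 0.50 and 0.31. The median was 0.49 for thick ascending limb, 0.48 for collecting duct, 0.21 for brush border and 0.04 for vascular smooth muscle and pericyte markers. For macrophage and tubular injury markers it was -0.23 and -0.83. Within the proximal tubule list Slc5a12 (-0.38) and Slc5a2 (-0.23) went the other way. Summed podocyte markers were 276 to 971 CPM in the Ade and 641 to 1396 CPM in the Ade + IMC mice, and endothelial markers 313 to 590 and 379 to 749 CPM. Their part in the Ren1 and Agtr1a levels was not tested.

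The other tested members differed less, relative to their spread. Ace had 74.3, 129, 196, 81.1, 138 and 117 CPM in the Ade + IMC mice and a log2 fold change of 0.35 ± 0.26 (SE, limma adjusted p = 0.814). Mme, at 80.6 to 162 CPM with a median of 117, had 0.24 ± 0.25, and Enpep, at 94.8 to 149 CPM with a median of 107, had 0.21 ± 0.17 on the log2 scale. Atp6ap2 ranged from 83.3 to 111 CPM, with 0.07 ± 0.11. Agt had 75.0, 92.6, 124, 54.3, 78.2 and 99.97 CPM, with 3 of 6 mice below every Ade mouse and a log2 fold change of -0.24 ± 0.16 (SE, limma adjusted p = 0.795). Agtr1b had 0 to 2 counts and Mas1 4 to 12 counts in the Ade + IMC libraries.

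Among the other pathway genes 0 of 36 tested passed the threshold, and 3 had an unadjusted p below 0.05. Anpep had 132 to 190.3 CPM in the Ade + IMC mice and a log2 fold change of 0.00 ± 0.11 (SE). Akr1b7 was 3.73 to 4.29 CPM, at a log2 fold change of 0.19 ± 0.13 (SE, limma adjusted p = 0.807, exact permutation p = 0.0303). Klk1 had 0.25 ± 0.25 and Gja5 0.17 ± 0.17 on the log2 scale. With the digit as a block 1 pathway gene was called, the mineralocorticoid receptor gene Nr3c2, which was named after its value was seen (log2 fold change 0.40, limma adjusted p = 0.0947).

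Ade + IMC mice were also compared with Con mice, using the same Con mice as above and therefore not an independent comparison. Ace, Mme, Enpep, Agtr1a and Atp6ap2 were again lower and Agt was lower as well, so that 6 of 7 tested members were called lower and 0 higher (limma on log2 of CPM + 1). Of all 14578 tested genes 63.4% were called and 32.5% were called lower. Ren1 was not called. The median log2 fold change was -0.63 over the tested members and -0.01 over all genes. Over the proximal tubule markers it was -1.82 and over the brush border markers -1.23, and their part in the members' levels was not tested.

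Ace was 3.46-fold lower than in the Con mice (log2 fold change -1.79 ± 0.20, SE, limma adjusted p = 9.13e-06) and Mme 2.87-fold lower (-1.52 ± 0.17, limma adjusted p = 8.45e-06). Enpep was 1.68-fold lower (-0.75 ± 0.13, limma adjusted p = 0.000281) and Atp6ap2 1.49-fold lower (-0.58 ± 0.08, limma adjusted p = 4.52e-05). For these 4 genes no Ade + IMC mouse reached the lowest Con mouse, beside 16.4% of all tested genes. Agtr1a was 1.55-fold lower (-0.63 ± 0.12, limma adjusted p = 0.000493), with 5 of 6 mice below all Con mice and Ade + IMC replicate 5, at 61.0 CPM, just inside the Con range. These 5 calls held in all 17 alternatives.

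The call of Agt rested close to the threshold, at a log2 fold change of -0.34 ± 0.17 (SE, limma adjusted p = 0.0922, exact permutation p = 0.141). It was lost in 12 of 17 alternatives, with edgeR (0.125), DESeq2 (0.156) and upper-quartile scaling (0.207) and without each of 9 of the 11 mice in turn, and the adjusted p ran from 0.019 to 0.207. Without Ade + IMC replicate 4, the library that stood apart from its group and had the lowest Agt at 54.3 CPM, the log2 fold change was -0.22 (adjusted p = 0.179).

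Ren1 was not called, and its direction depended on Con replicate 5 and on the test. The log2 fold change was 0.09 ± 0.51 (SE, limma adjusted p = 0.887, exact permutation p = 0.976), as Con replicate 5 lay below and the other 4 Con mice above all 6 Ade + IMC mice. Without Con replicate 5 it was -0.57 ± 0.16 (SE, limma adjusted p = 0.00853), with a lowest Con value of 118 CPM and a highest Ade + IMC value of 114 CPM. With edgeR and DESeq2 on all 11 mice the estimate was -0.30 and -0.29, with adjusted p of 0.554 and 0.675. The adjusted p ran from 0.00853 to 0.938 over the 17 alternatives.

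Of the other pathway genes 36 were tested against the Con mice, with 11 higher and 12 lower in the Ade + IMC mice, beside 30.8% and 32.5% of all genes, and a median log2 fold change of 0.04. Nos1 fell by 1.08 (SE 0.28, limma adjusted p = 0.00492), where 1 of 2 thick ascending limb and 1 of 2 collecting duct markers were also lower, and Lnpep, which encodes the angiotensin IV binding aminopeptidase, by 0.97 (SE 0.28; 0.00976) on the log2 scale. Lnpep had 16.5 to 63.3 CPM in the Con and 13.4 to 20.2 CPM in the Ade + IMC mice, so the groups overlapped. Ptger4 was higher by 1.53 ± 0.18 (SE, limma adjusted p = 1.17e-05) and Gja4 by 0.94 ± 0.15 (SE, 0.000169), with every Ade + IMC mouse above every Con mouse. In this comparison 4 of 4 macrophage markers and 4 of 6 markers of vascular smooth muscle and pericytes were higher as well, with summed levels of 289 to 424 and 524 to 1106 CPM in the Ade + IMC mice, and their part in these levels was not tested. The call of Rgs5, among the latter, was lost in 11 of 17 alternatives. Prkar2b, a regulatory subunit of protein kinase A, was higher by 1.34 ± 0.53 (SE, limma adjusted p = 0.045). Its highest level, 101 CPM, was in Ade + IMC replicate 2, which also had the highest fat marker sum, and the call was lost without Con replicate 4 (adjusted p = 0.105). Akr1b7 was above every Con mouse in 6 of 6 Ade + IMC mice (log2 fold change 0.68 ± 0.18, SE, limma adjusted p = 0.00588), while Ren1 in the same mice was below 4 of the 5 Con mice.

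**Figure D5:**
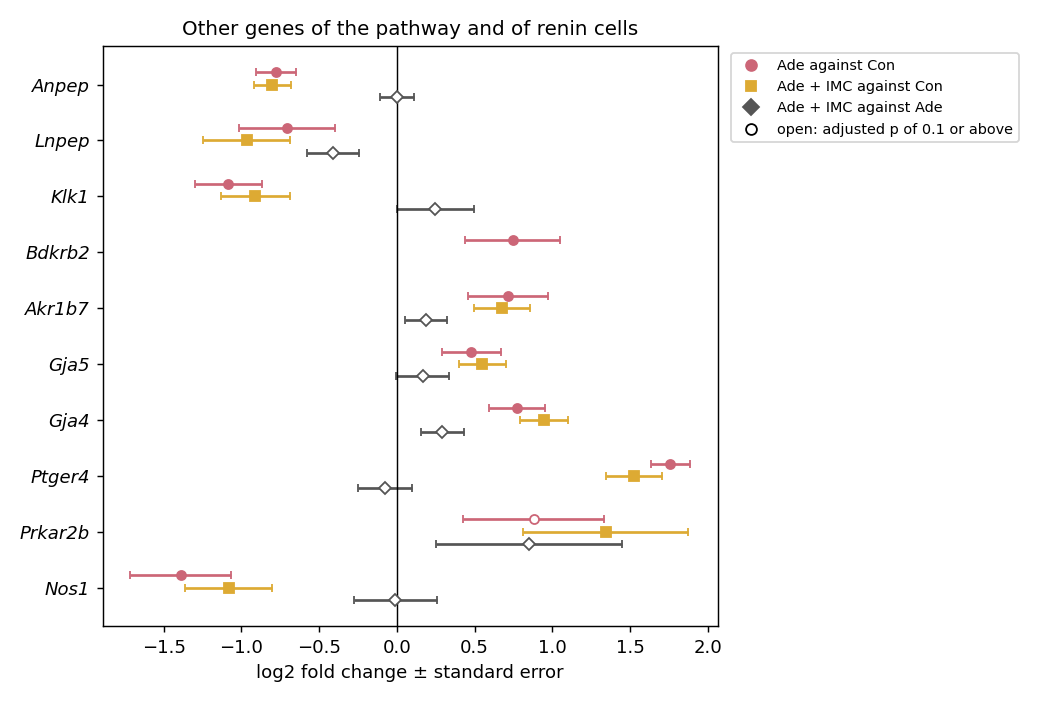
Log2 fold change ± SE (horizontal axis) of 10 other pathway genes in the 3 comparisons, with open symbols for an adjusted p of 0.1 or above and no symbol where a gene was not tested. Anpep, Lnpep, Klk1 and Nos1 lie below 0 and Akr1b7, Gja5, Gja4, Ptger4 and Prkar2b above 0 in both comparisons with the Con mice.

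Finally, the genes whose level varied most like that of a member within groups were listed, using Pearson's r of log2 CPM after the group means were removed (n = 17 mice). These are the highest of all tested genes by construction and carry no test. For Ren1 they were Akr1b7 (r = 0.90), Hdgfl3 (0.84) and Lpin2 (0.83), and without Con replicate 5 these values were 0.67, 0.33 and 0.76, so Akr1b7 and Hdgfl3 owed much of theirs to that mouse. For Ace they were the brush border genes Slc3a1 (r = 0.94), an amino acid transporter subunit, and Mep1a (0.94), meprin alpha, followed by Ldhd (0.93). Mme varied with Asah2 (0.98), a neutral ceramidase, March6 (0.94) and Cachd1 (0.94), and Enpep with Zhx1 (0.95), Timp3 (0.95) and Ahcyl2 (0.94). Agtr1a varied with Acmsd, Arvcf and Dpep1 (0.90 each), of which Dpep1 is a brush border dipeptidase. For Agt the genes were Mrfap1 (0.89), Hdac6 (0.88) and Plpp2 (0.87). Among the members, Mme and Enpep (0.85) and Ace and Mme (0.82) were most alike, while r of Agt with the others ran from -0.29 to 0.35. All of these values share the same 17 libraries and their scaling.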

How the data were processed

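Total kidney RNA was sequenced as 50-base single-end reads from TruSeq libraries. Per the study's methods, the authors aligned reads with STAR to mm10 (GRCm38), whereas the submitters' processing notes list Trimmomatic 0.39, FastQC 0.11.8, Bowtie2 2.2.5, HTSeq 0.9.1 and DESeq2 without roles. Annotation and strand setting are not given in the sources used here. The authors deposited raw counts per gene for Con and Ade mice and, for Ade and Ade + IMC mice, a signal, counts divided by DESeq2 size factors. A deposited table of the authors' own comparison was used for gene symbols only. All normalized values were whole multiples of 1 read (tolerance 0.001), and recovered reads equalled the raw counts of the 6 Ade mice. The smallest chi-square per degree of freedom between 2 libraries of a group was 4.21, so no library was counted as a copy of another. Library totals ran from 5444833 to 11680809 counts, and this depth limits the precision of genes with few counts.

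Ade and Con mice were compared with the quasi-likelihood test of edgeR 4.0.16 (R 4.3.3; TMM, filterByExpr), Ade + IMC and Ade mice with limma 3.58.1 (trend) on log2(normalized count + 1) at a mean of at least 10, and Ade + IMC and Con mice with limma on log2(CPM + 1) from raw and recovered reads. Fold changes of the limma tests are on the log2(value + 1) scale. P-values were adjusted over all genes by Benjamini-Hochberg with a threshold of 0.1. Exact two-sided permutation tests used log2 values over mice. Replicates were numbered in the order of their listing, and each is a separate mouse number in the labels. DESeq2 1.42.0, other scalings, filters, pseudocounts and thresholds, mice blocked by the leading digit of their number and leaving out each mouse were tried. The main test of each comparison was checked on simulated data. Members and lists were chosen with earlier results of these data known. Named were the members, Anpep, Agtr2, Klk1, Akr1b7, Gja5, the 3 called pathway genes of largest change in each direction and comparison, and the 3 genes most like Ren1, Agt, Ace, Agtr1a, Mme and Enpep. A gene that this rule names is not reported here.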

Additional observations from a re-analysis of the deposited data

Results flagged for a closer look

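In 54 groups of the members' values, on the CPM and the log2 scale, the highest or lowest mouse was compared with the rest of its group by Dixon's ratio at its 95% limit, which chance exceeds in about 1 in 20 groups, and 4 values stood apart. Ren1 in Con replicate 5 was 3.85 on the log2(CPM + 1) scale beside 6.90 to 7.66 in the other Con mice. Ace in Con replicate 1 was 522 CPM beside 366 to 381 CPM, or 9.03 beside 8.52 to 8.58 on the log2(CPM + 1) scale. Agtr1a in Ade replicate 4 was 55.7 CPM beside 23.5 to 35.4 CPM in the other Ade mice. The calls of Ace and Agtr1a were the same without these mice, whereas Ren1 depended on Con replicate 5.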

How the results depend on the processing

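Over the alternatives tried, 5 or 6 members were called in Ade against Con and in Ade + IMC against Con. In Ade + IMC against Ade, 2 were called at an unadjusted p below 0.05, and 1 member and 1 other pathway gene with mice blocked by the leading digit of their number. Leaving out each mouse in turn, added for the other pathway genes after seeing the data, gave 20 to 25 called pathway genes in Ade against Con, 0 in Ade + IMC against Ade and 20 to 24 in Ade + IMC against Con. Ren1 in Ade + IMC against Con turned from 0.09 to -0.30 with edgeR, -0.29 with DESeq2 and -0.57 without Con replicate 5, and ran from -0.57 to 0.39 with a mouse left out. The cause of the change between tests was not tested. Ren1 in Ade against Con passed the threshold with RLE scaling (-0.90, adjusted p = 0.0992), without Ade replicate 4 (-1.07, adjusted p = 0.0631) and without Con replicate 5, and it was smaller with limma (-0.56, adjusted p = 0.387) and without Con replicate 4 (-0.60, adjusted p = 0.287). Of all values of the members under alternatives, 3 of 119 in Ade against Con, 1 of 126 in Ade + IMC against Ade and 15 of 119 in Ade + IMC against Con changed call or sign, all of them for Ren1 and Agt. In Ade + IMC against Ade the block raised the count of all genes called from 0 to 133 and DESeq2 to 37. The mice were blocked only by the leading digit, since the labels state no pairing of single mice between groups. The Con and Ade + IMC mice come from separately deposited tables, joined by gene as raw counts and recovered reads. The Ade mice served only to check that recovered reads equalled raw counts. Agtr1b and Mas1 had too few counts for the tests across genes.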
